A study of Mus musculus with 8 samples.

Results

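The 10 antioxidant genes described here were followed in mouse stroke infarcts: the glutathione peroxidases *Gpx1*, *Gpx3*, *Gpx4*, *Gpx7* and *Gpx8*, the superoxide dismutases *Sod1*, *Sod2* and *Sod3*, the catalase gene *Cat*, and the selenium carrier gene *Selenop*. *Gpx3* was chosen by its rise in read counts between these same treated and control libraries, and the other 9 were listed as its functional relatives, to see which of them shared its change. The 10 genes are among 46078 listed in the count tables. All 10 were among the 14736 genes with enough counts to be tested.

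RNA was sequenced from the infarcts of 8 wild-type male C57BL/6J mice aged 18 months. The stroke model, called DH, combines closure of the distal middle cerebral artery with a period of hypoxia. From 1 week after stroke, 4 mice received subcutaneous vehicle (sterile PBS) and 4 received 2-hydroxypropyl-β-cyclodextrin (HPβCD), a cyclic sugar that entraps lipids, at 4 g/kg. Injections were given 3 times per week for 6 weeks and infarcts were collected at 7 weeks. There was no group without stroke and no group without injections, and the infarcts were found by eye and cut out by hand.

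Superoxide dismutases turn superoxide into hydrogen peroxide, *Sod1* mainly in the cytosol, *Sod2* in mitochondria and *Sod3* outside cells. Peroxides are then removed by catalase in peroxisomes or by glutathione peroxidases, which differ in place and substrate. *Gpx1* acts in the cytosol and mitochondria, *Gpx3* is secreted and best known from blood plasma, *Gpx4* reduces lipid peroxides within membranes, and *Gpx7* and *Gpx8* reside in the endoplasmic reticulum. Several of these enzymes carry selenocysteine, an amino acid written into the mRNA by a UGA codon that would otherwise stop translation, and *Selenop* encodes the secreted protein that carries selenium to tissues.

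The catalytic position separates the selenium enzymes from the rest of the family, and it is shown here as the coding strand around that codon. Each line gives the codon in capitals with 30 bases on each side, 5′ to 3′, from the GENCODE M21 annotation of GRCm38.

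Gpx3: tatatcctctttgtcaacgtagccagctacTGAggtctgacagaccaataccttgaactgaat
Gpx1: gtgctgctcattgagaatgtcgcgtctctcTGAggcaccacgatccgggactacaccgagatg
Gpx4: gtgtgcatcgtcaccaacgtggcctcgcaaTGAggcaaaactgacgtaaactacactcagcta
Gpx7: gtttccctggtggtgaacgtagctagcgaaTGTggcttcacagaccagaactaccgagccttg
Gpx8: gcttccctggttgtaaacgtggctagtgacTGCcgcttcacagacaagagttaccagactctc
Selenop: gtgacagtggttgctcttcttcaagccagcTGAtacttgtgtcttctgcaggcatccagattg

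*Gpx3*, *Gpx1* and *Gpx4* have the selenocysteine codon TGA at this position. *Gpx7* has TGT and *Gpx8* has TGC in the aligned position, both of which encode cysteine. The *Gpx3* codon is codon 73 and lies in exon 2 of 5 on chromosome 11 (54907256 to 54907258, plus strand). For *Selenop* the first of 10 annotated selenocysteine codons is shown (codon 59, exon 2 of 5, chromosome 15, 3274848 to 3274850, plus strand). The other 4 codons lie in exons of *Gpx1* (chromosome 9, 108339451 to 108339453), *Gpx4* (chromosome 10, 80054737 to 80054739), *Gpx7* (chromosome 4, 108403430 to 108403432, minus strand) and *Gpx8* (chromosome 13, 113045661 to 113045663, minus strand). Translated and aligned with *Gpx3*, *Gpx1* had 50.3% identical residues, *Gpx7* 38%, *Gpx4* 33.5% and *Gpx8* 31.7%.

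Libraries held 16.6 to 32.9 M gene counts, and vehicle library 2 was the deepest. Vehicle libraries 1 and 3 stood apart by neuronal RNA: the synaptic gene *Snap25* was at 335 and 3023 CPM (counts scaled to a common library size with TMM factors) in them and at 0.919 to 29.9 CPM in the other 6. Where leaving these libraries out ended a call or moved a fold change given here by over 1.5 times, the value without them is given too. This was done for the 10 genes and the antioxidant and redox genes, and not for the cell type markers. Fibroblast markers were higher after HPβCD, with a summed level of 3318 to 7469.9 CPM in vehicle and 10428 to 11806 CPM in HPβCD libraries. Of them, 9 of 10 had a log2 fold change above 0, against 45.9% of all genes tested. Foamy macrophage markers summed to 7471 to 13194 and 16456 to 26736 CPM, with 8 of 10 above 0 and *Gpnmb* the most abundant. B lymphocyte and plasma cell markers summed to 1528 to 3137 and 368 to 686 CPM. In bulk tissue, more cells of a type and more RNA per cell cannot be told apart.

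*Gpx3* was at 216, 221, 216 and 288 CPM in vehicle libraries 1 to 4. It was at 965, 716, 853 and 632 CPM in HPβCD libraries 1 to 4. The groups did not overlap, and the lowest HPβCD library lay well above the highest vehicle library. Means were 235 ± 35.5 CPM and 792 ± 147 CPM (SD, n = 4 each), a ratio of 3.36 and a log2 fold change of 1.75 (SE 0.19, 95% interval 1.32 to 2.18). This fold change was above that of 99.9% of all genes tested, which describes how the gene was chosen and was not tested. Without vehicle libraries 1 and 3 it was 1.65.

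Of the 9 other genes, 1 passed the test in the higher direction, against 1.17% of all genes tested (edgeR quasi-likelihood test, Benjamini-Hochberg adjusted p under 0.05 over all genes). That gene was *Cat*. In the lower direction edgeR called 0 of 9, against 0.774% of all genes, and 0 of 9 were below an unadjusted p of 0.05 or called by DESeq2 or limma-voom. CPM did not overlap between the groups for 3 of 9 in the higher direction (*Cat*, *Selenop* and *Gpx7*), against 8.77% of all genes, and for 1 of 9 in the lower direction (*Sod2*), against 8.03%. The median log2 fold change of the 9 was 0.49, and that of all genes tested was -0.05. DESeq2, the tool used in the study, called 3 of 9 higher (*Cat*, *Gpx7* and *Selenop*) against 5.92% of its genes. Limma-voom called these 3 and *Sod1* higher, against 10.9% of all genes. A log2 fold change above 0 was found for 7 of 9, against 45.9% of all genes.

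**Figure D1:**
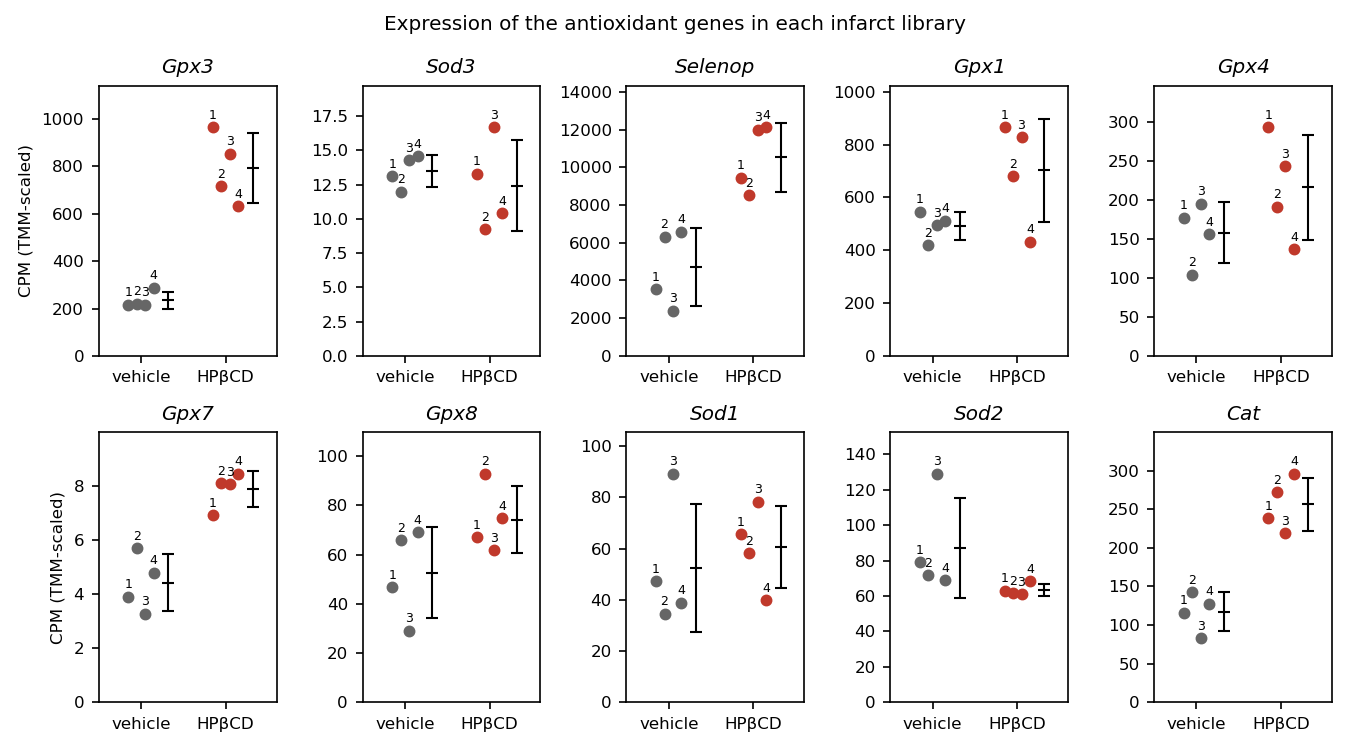
Expression of the 10 genes in each library, in TMM-scaled CPM on linear axes from 0, with vehicle in gray and HPβCD in red. Numbers are library numbers, and the black bar is the mean with its SD (n = 4). *Gpx3* was at 216 to 288 CPM in vehicle and 632 to 965 CPM in HPβCD libraries, while the ranges of *Sod3*, *Gpx1*, *Gpx4*, *Gpx8* and *Sod1* overlapped.

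*Selenop*, the other abundant secreted product, was at 3535, 6331, 2399 and 6594 CPM in the vehicle libraries. It was at 9449, 8535, 11998 and 12129 CPM in the HPβCD libraries. The groups did not overlap, and the lowest vehicle values were in libraries 3 and 1. The log2 fold change was 1.16 (SE 0.35) with an edgeR adjusted p of 0.0858, and without vehicle libraries 1 and 3 it was 0.72 (adjusted p = 0.113). Of its exon bases, 15.4% overlap *Ccdc152* on the opposite strand, a gene at 12.3 to 36.5 CPM in vehicle and 51.3 to 83.2 CPM in HPβCD libraries. Whether the counting used strand was not stated, and without strand the reads of *Selenop* and *Ccdc152* in the overlap cannot be told apart.

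*Sod3*, the secreted dismutase, was at 13.1, 12, 14.3 and 14.6 CPM in vehicle and 13.3, 9.25, 16.7 and 10.4 CPM in HPβCD libraries. The groups overlapped, with HPβCD library 3 the highest of all and library 2 the lowest. Its log2 fold change was -0.12 (SE 0.21, 95% interval -0.59 to 0.35, adjusted p = 0.75). The 3 secreted products therefore had log2 fold changes of 1.75, 1.16 and -0.12.

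Catalase, encoded by *Cat*, breaks hydrogen peroxide into water and oxygen without glutathione. Its gene (chromosome 2, 103453849 to 103485160, minus strand) was at 116, 143, 83 and 128 CPM in vehicle libraries. It was at 238, 272, 219 and 296 CPM in HPβCD libraries, and every one of these lay above every vehicle library. *Cat* rose by a log2 fold change of 1.13 (SE 0.19, 95% interval 0.69 to 1.56, edgeR adjusted p = 0.0472), from 117 ± 25.5 to 256 ± 34.4 CPM (SD, n = 4 each). Without vehicle libraries 1 and 3 the log2 fold change was 0.94 with an adjusted p of 0.0397, in a fit that called 1.34% of its genes. The call was kept in 8 of 16 alternative analyses, whose log2 fold changes ran from 0.94 to 1.24 and adjusted p from 6.3e-05 to 0.175. It was lost without vehicle library 1 or 4 or HPβCD library 1, 2 or 3 (adjusted p of 0.151, 0.0635, 0.156, 0.175 and 0.0899), fits in which 0 to 4 genes were called in all.

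A list of genes for peroxisomal import and oxidases was split in direction, and whether each listed gene acts in the peroxisome was not checked. Of 20 tested, 9 had a log2 fold change above 0 and 11 below, and edgeR called 0. At an unadjusted p of 0.05, 2 were higher (*Acox3* and *Xdh*) and 1 lower (*Pex5l*), and DESeq2 called the same genes. *Pex5l* was highest in the vehicle libraries with neuronal RNA, at 58.9 CPM in library 3 and 36.4 CPM in library 1. The part of neuronal RNA in its values was not tested.

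*Gpx7*, a peroxidase of the endoplasmic reticulum, was the least abundant glutathione peroxidase of the 5. It was at 3.9, 5.68, 3.27 and 4.79 CPM in vehicle and 6.9, 8.09, 8.05 and 8.44 CPM in HPβCD libraries, from 54 to 198 counts per library. The groups did not overlap. With a log2 fold change of 0.83 (SE 0.21), the adjusted p was 0.0678, and without vehicle libraries 1 and 3 these were 0.60 and 0.146.

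*Gpx8*, its membrane-bound relative in the same compartment, was at 46.7, 65.8, 29.1 and 69.2 CPM in vehicle and 67, 92.8, 61.8 and 74.8 CPM in HPβCD libraries. The groups overlapped, and vehicle libraries 3 and 1 were the lowest. The log2 fold change of 0.49 (SE 0.27, adjusted p = 0.273) was 0.15 without these libraries.

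*Gpx1*, the main cytosolic peroxidase, was at 546, 419, 494 and 512 CPM in vehicle libraries. It was at 866, 680.1, 829 and 433 CPM in HPβCD libraries. HPβCD libraries 1, 2 and 3 lay above all vehicle libraries, and HPβCD library 4 lay within the vehicle range. The log2 fold change was 0.51 (SE 0.23, 95% interval -0.01 to 1.03, adjusted p = 0.185).

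*Gpx4* protects membrane lipids from peroxidation. It was at 177, 104, 195 and 156 CPM in vehicle and 293, 191, 243 and 137 CPM in HPβCD libraries, and the groups overlapped. It had a log2 fold change of 0.45 (SE 0.27, adjusted p = 0.311), and of 0.75 without vehicle libraries 1 and 3 (adjusted p = 0.211). Its counts are uncertain, since 62.4% of the 75-base stretches of its exons also occur in the copies *AC122253.3* and *Gpx4-ps2* and reads that match several places were not counted.

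*Sod1* was at 47.2, 34.6, 89.2 and 38.9 CPM in vehicle and 65.6, 58.3, 78.3 and 40 CPM in HPβCD libraries. The highest value of all was in vehicle library 3, the one with the most neuronal RNA. The log2 fold change was 0.21 (SE 0.33, adjusted p = 0.725) and became 0.74 without vehicle libraries 1 and 3 (adjusted p = 0.143). Limma-voom, which gave less weight to some libraries, called it higher (log2 fold change 0.58, adjusted p = 0.0497). Of its stretches, 12.2% also occur in the pseudogene *Gm8566*.

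*Sod2*, the mitochondrial dismutase, was the only one of the 10 whose groups did not overlap in the lower direction. It was at 79.1, 71.8, 129 and 68.9 CPM in vehicle and 63, 61.5, 60.9 and 68.3 CPM in HPβCD libraries. The separation was narrow, and the highest value was again in vehicle library 3. The log2 fold change was -0.46 (SE 0.21, 95% interval -0.92 to 0.01, adjusted p = 0.186) and became -0.14 without vehicle libraries 1 and 3. The part of neuronal RNA in the *Sod1* and *Sod2* values was not tested.

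**Figure D2:**
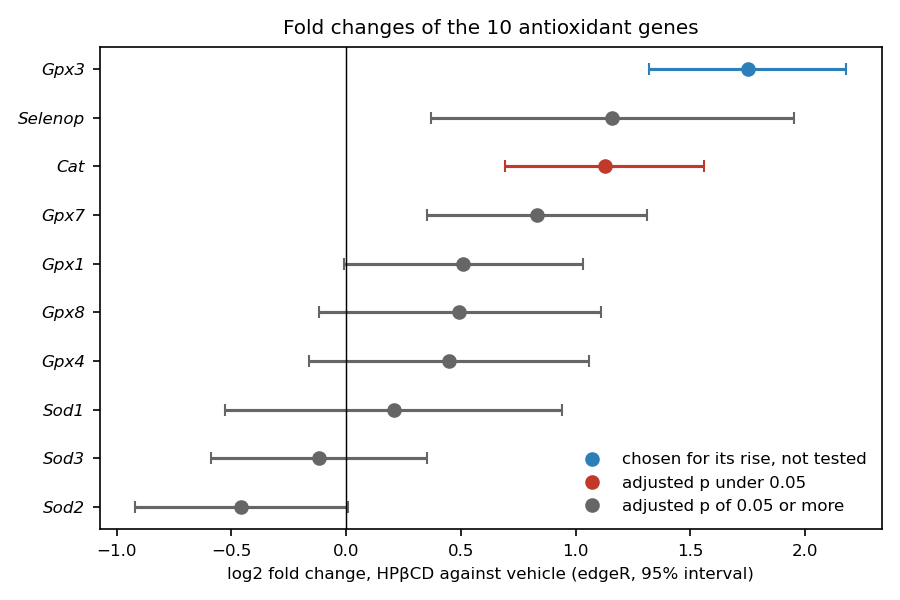
Log2 fold changes of the 10 genes, HPβCD against vehicle, from the edgeR fit with 95% intervals (n = 4 per group). *Gpx3* (blue, 1.75) was chosen for its rise and not tested, *Cat* (red, 1.13) had an adjusted p under 0.05, and the intervals of *Gpx1*, *Gpx8*, *Gpx4*, *Sod1*, *Sod3* and *Sod2* include 0.

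To ask how far *Gpx3* moved relative to its relatives within the same infarct, the log2 ratio of *Gpx3* CPM to the CPM of each gene was taken in every library. Since *Gpx3* was chosen for its rise, these ratios are a description. Against *Gpx1* the ratio was -1.34 to -0.83 in vehicle and 0.04 to 0.55 in HPβCD libraries, so *Gpx3* had fewer counts than *Gpx1* in all vehicle libraries and more in all HPβCD libraries. The ratio did not overlap between groups for 7 of the 9 genes, with differences of 0.88 (*Gpx7*) to 2.15 (*Sod2*). Such a count was not made over all genes, so it does not set these genes apart from others. The ratio overlapped for *Cat* (0.63 to 1.38 in vehicle, 1.09 to 2.02 in HPβCD) and *Selenop* (-4.84 to -3.48 in vehicle, -4.26 to -3.29 in HPβCD). Mean differences for these were 0.60 and 0.48.

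**Figure D3:**
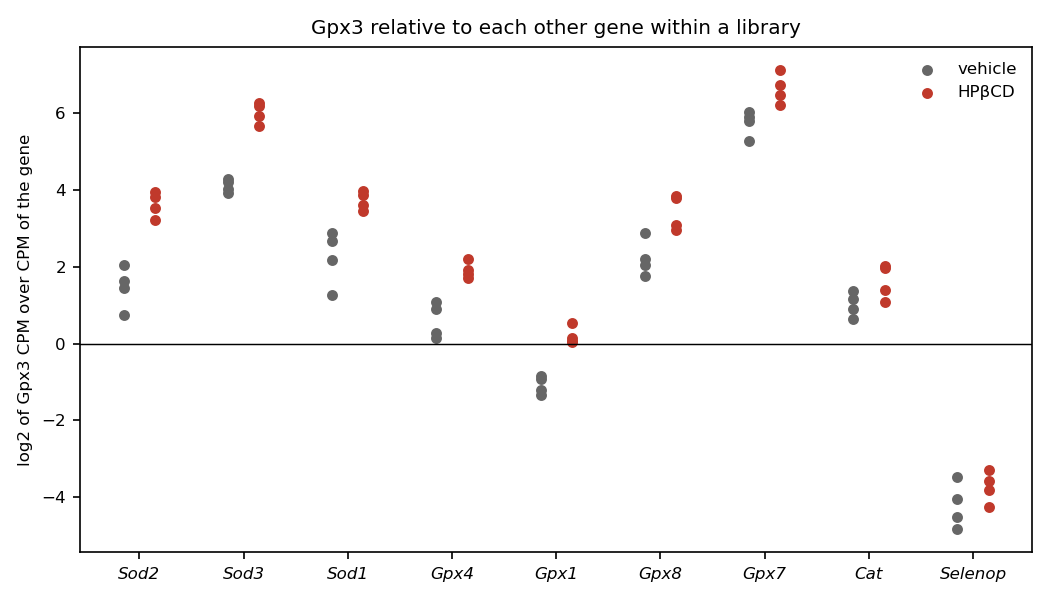
Log2 ratio of *Gpx3* CPM to the CPM of each other gene in each library (vehicle gray, HPβCD red), ordered by the difference between group means. Dots above the line at 0 are libraries with more *Gpx3* counts than counts of the other gene. The groups overlap for *Cat* and *Selenop*, and for *Gpx1* they lie on opposite sides of 0.

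Levels were compared between genes as CPM per kilobase of exon. In vehicle libraries the order of mean levels was *Selenop* (1659), *Gpx1* (342), *Gpx3* (129.7), *Gpx4* (91.7), *Gpx8* (50.3), *Cat* (44.9), *Sod1* (13.2), *Sod2* (8.70), *Sod3* (3.61) and *Gpx7* (3.42 CPM per kilobase). Neighbours whose libraries overlapped were *Gpx4* with *Gpx8*, *Gpx8* with *Cat*, *Sod1* with *Sod2*, and *Sod3* with *Gpx7*. In HPβCD libraries *Selenop* was at 3704, *Gpx1* at 487 ± 136, *Gpx3* at 437 ± 81.1, *Gpx4* at 125, *Cat* at 98.1 and *Gpx8* at 70.7 CPM per kilobase (SD, n = 4). There the ranges of *Gpx1* and *Gpx3* overlapped (300.5 to 601 and 349 to 532), as did those of *Gpx4* with *Cat* and of *Cat* with *Gpx8*.

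Of the summed per-kilobase level of the 5 glutathione peroxidases, *Gpx3* made up 18.4% to 23.6% in vehicle and 36.8% to 43.2% in HPβCD libraries. *Gpx1* made up 52.7% to 58.5% and 37.2% to 46%. Shares have a fixed total, so the rise for which *Gpx3* was chosen lowers the shares of the others, and they are given as a description. The mean level of *Gpx1* itself was 342 CPM per kilobase in vehicle and 487 in HPβCD libraries. With the length of the principal transcript in place of all exons, the *Gpx3* share was 15.4% to 20.3% and 32.6% to 38.8%. *Gpx4* then ranked above *Gpx3* in vehicle libraries with overlapping ranges. The level of *Sod1* also depended on this choice, since its exons span 3970 bases and its principal transcript 641. In vehicle libraries it was 13.2 CPM per kilobase by all exons and 81.9 by the principal transcript. By the latter its mean lay above those of *Gpx8* (50.6, with overlapping ranges) and *Cat* (44.9). Of the other family members, *Gpx2* had 0 counts in all 8 libraries, *Gpx5* had 1 count in 1 library, and *Gpx6* had 24 counts in vehicle library 1 and 2 in HPβCD library 3.

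The genes whose log2 CPM was most like that of *Gpx3* over the 8 libraries, among 9431 with a mean of at least 10 CPM, were *Alg12* (r = 0.989), *Vegfc* (0.987), *Hs1bp3* (0.985), *Ramp2* (0.984) and *Zfyve1* (0.983). After the group means were removed, r was 0.898, 0.762, 0.824, 0.93 and 0.877. All 8 points share the treatment contrast by which *Gpx3* was chosen, and r is given as a description. *Cat* had an r of 0.884 (rank 485), *Selenop* 0.828 (rank 863) and *Gpx1* 0.734 (rank 1525). With the group means removed, r was -0.154 for *Cat*, 0.298 for *Selenop* and 0.73 for *Gpx1*.

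The same comparison was made for 161 further antioxidant and redox genes in 14 lists, of which 146 were tested. EdgeR called 5 higher (*Pgd*, *G6pdx*, *Lrp1*, *Ftl1* and *Qsox1*) and 0 lower, against 1.17% and 0.774% of all genes. It called 0 of the 146 without vehicle library 1 or 4 or HPβCD library 1, 2 or 3, 11 without vehicle library 3, 10 without HPβCD library 4, and 2 without vehicle libraries 1 and 3. Over all genes it called 629 of 14906 without vehicle library 3 and 353 of 15043 without HPβCD library 4. Without vehicle libraries 1 and 3 it called 1.34% of all genes. At an unadjusted p of 0.05, 44 were higher and 6 lower, against 11.8% and 16.0% of all genes. DESeq2 called 29 higher and 2 lower, against 5.92% and 11.1% of its genes, and limma-voom 34 and 9, against 10.9% and 11.1%. Groups did not overlap for 33 in the higher and 3 in the lower direction, against 8.77% and 8.03% of all genes. The median log2 fold change of the 146 was 0.19, against -0.05 for all genes. A log2 fold change above 0 was found for 94, against 45.9% of all genes. The shares of all genes given here apply to each list below.

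*G6pdx* and *Pgd* encode the oxidative steps of the pentose phosphate pathway, which supply the NADPH that keeps glutathione reduced. *Pgd* was at 89.1, 124, 99.3 and 110.4 CPM in vehicle and 238, 224, 237 and 151 CPM in HPβCD libraries. Its log2 fold change was 1.01 (SE 0.18, adjusted p = 0.0483). *G6pdx* was at 57.8, 61.1, 64.4 and 56.7 CPM in vehicle and 109, 112, 143 and 79.9 CPM in HPβCD libraries. Its log2 fold change was 0.88 (SE 0.17, adjusted p = 0.0483). In both genes every HPβCD library lay above every vehicle library, with HPβCD library 4 the lowest. Without vehicle libraries 1 and 3 neither was called (log2 fold changes of 0.88 and 0.93, adjusted p = 0.0728 for both). Both were listed among 25 tested regulators and targets of NRF2, the transcription factor that induces antioxidant genes. Of these, 2 were called higher and 0 lower, against 1.17% and 0.774% of all genes. At an unadjusted p of 0.05, 9 were higher and 1 lower, against 11.8% and 16.0% of all genes. DESeq2 called 6 higher and 0 lower, against 5.92% and 11.1% of its genes. In 20 the log2 fold change was above 0, against 45.9% of all genes, and the median was 0.42.

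Glutathione synthesis and recycling gave no call (0 of 12 by edgeR, 3 higher and 0 lower at an unadjusted p of 0.05, 2 by DESeq2, median -0.07). *Slc7a11*, the cystine importer, was at 490.4 to 963 CPM in vehicle and 474 to 874 CPM in HPβCD libraries. *Gsr*, which reduces oxidized glutathione, was at 69.2 to 159.8 CPM and 174 to 229 CPM, with a log2 fold change of 0.78 and an adjusted p of 0.0961 (0.44 and 0.158 without vehicle libraries 1 and 3). Among 20 tested glutathione S-transferases edgeR called 0. At an unadjusted p of 0.05, 8 were higher, against 11.8% of all genes. DESeq2 called 5 higher, against 5.92% of its genes, and the median was 0.43. The most abundant, *Mgst1*, was at 64.8 to 164 CPM and 208 to 238 CPM (log2 fold change 0.85, adjusted p = 0.0948, and 0.50 and 0.106 without vehicle libraries 1 and 3).

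Peroxiredoxins, which also remove peroxides, differed among themselves. *Prdx1* was at 545, 636, 387 and 626 CPM in vehicle and 834, 899.7, 761 and 924 CPM in HPβCD libraries, and the groups did not overlap. Its log2 fold change was 0.64 (adjusted p = 0.085). *Prdx6* was at 357 to 716 CPM in vehicle and 220.0 to 459.7 CPM in HPβCD libraries, with a log2 fold change of -0.78 (adjusted p = 0.138). EdgeR called 0 of 6, DESeq2 1, and the median was 0.20. In the thioredoxin and glutaredoxin system edgeR called 0 of 11 (3 at an unadjusted p of 0.05, 2 by DESeq2, median 0.08), and *Txnrd1*, thioredoxin reductase, was at 103 to 147 CPM and 187 to 224 CPM (adjusted p = 0.0599).

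Among the partners of *Selenop*, the receptor gene *Lrp1* rose. It was at 611, 760.4, 1027 and 753 CPM in vehicle and 1782, 2052, 1867 and 1201 CPM in HPβCD libraries, a log2 fold change of 1.13 (SE 0.23, adjusted p = 0.0499). *Lrp8*, the receptor known for selenium uptake in brain, was at 20.4, 6.17, 27.3 and 9.41 CPM and 4.14, 2.7, 7.08 and 5.16 CPM, with overlapping groups and its highest values in vehicle libraries 3 and 1 (log2 fold change -1.72, adjusted p = 0.0824). Without these libraries it was -0.68 (adjusted p = 0.294). Of 16 other selenoprotein genes tested, edgeR called 0 (3 higher and 1 lower at an unadjusted p of 0.05, 2 by DESeq2, median 0.11). Of 10 genes for selenocysteine synthesis and insertion it called 0 (1 at an unadjusted p of 0.05, 1 by DESeq2, median 0.03).

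*Ftl1*, the ferritin light chain that stores iron, was at 928, 1214, 1125 and 1279.9 CPM in vehicle and 2259, 2563, 3409 and 1951 CPM in HPβCD libraries. Its log2 fold change was 1.16 (SE 0.22, adjusted p = 0.0483), and 1.04 without vehicle libraries 1 and 3 (adjusted p = 0.0674). *Fth1*, the heavy chain, was at 2307 to 3972 CPM and 4197 to 7933 CPM without overlap (adjusted p = 0.0881). Of the 10 tested genes of ferroptosis and lipid peroxide defence, 1 was called higher, against 1.17% of all genes. At an unadjusted p of 0.05, 7 were higher and 0 lower, against 11.8% and 16.0% of all genes. DESeq2 called 5 higher and 0 lower, against 5.92% and 11.1% of its genes. A log2 fold change above 0 was found for 8, against 45.9% of all genes, with a median of 0.58. *Qsox1*, which forms disulfides in secreted proteins, was at 31, 40.8, 29.6 and 39.9 CPM and 76.2, 71.4, 72.8 and 52.8 CPM (log2 fold change 0.95, adjusted p = 0.0483). Without vehicle libraries 1 and 3 the adjusted p was 0.0664. It was the 1 call among 8 genes of oxidative folding (3 higher and 0 lower at an unadjusted p of 0.05, 2 higher by DESeq2, median 0.26).

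On the side of oxidant production, edgeR called 0 of 8 tested NADPH oxidase genes. All 8 had a log2 fold change above 0, against 45.9% of all genes (3 at an unadjusted p of 0.05, 2 by DESeq2, median 0.35). *Cybb*, the phagocyte oxidase, was at 317 to 846 CPM in vehicle and 490.4 to 770.0 CPM in HPβCD libraries. Copper delivery gave 0 calls of 6 (4 higher and 1 lower at an unadjusted p of 0.05, 1 higher by DESeq2, median 0.47). Metallothioneins gave 0 of 3 (0 at an unadjusted p of 0.05 and 0 by DESeq2, median -0.19).

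**Figure D4:**
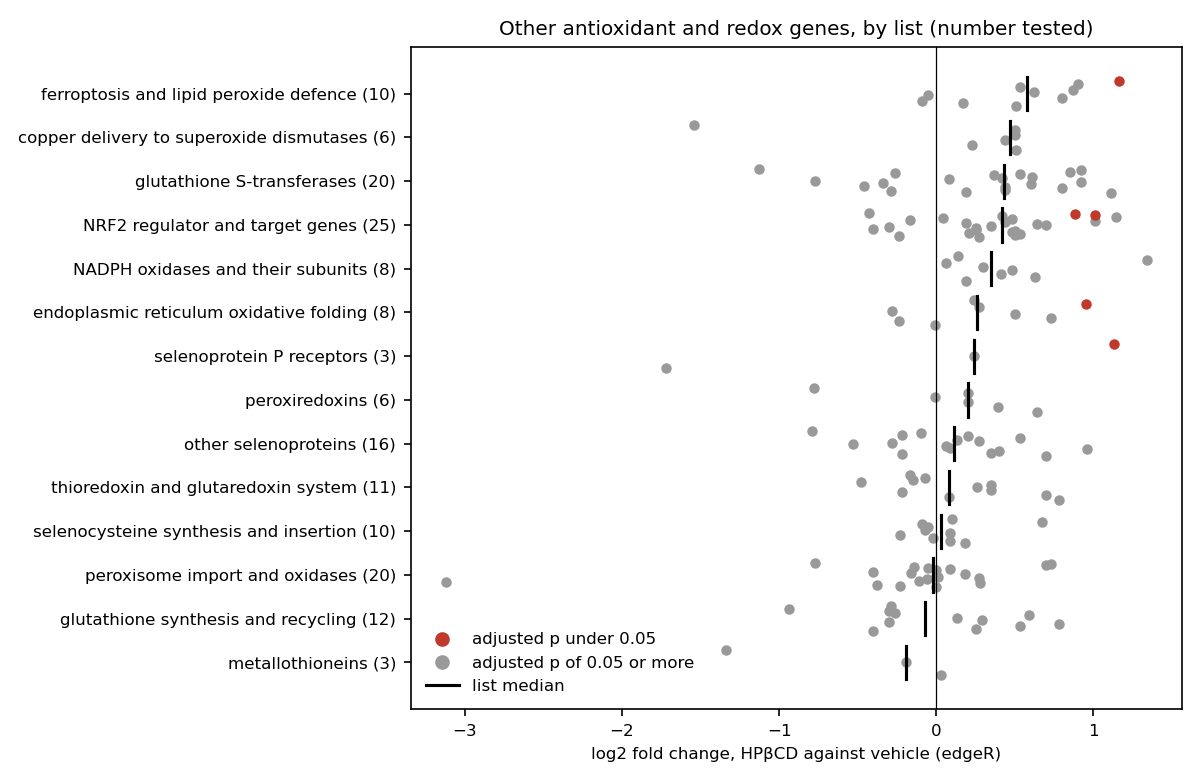
Log2 fold changes (HPβCD against vehicle, edgeR) of the further antioxidant and redox genes by list, 1 dot per gene, with the number tested in brackets. Red dots have an adjusted p under 0.05 and the black bar is the median of the list, which ran from -0.19 (metallothioneins) to 0.58 (ferroptosis and lipid peroxide defence).

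Markers of several cell types differed between the groups. Fibroblast *Col1a2* was at 643 to 1218 CPM in vehicle and 1946 to 3002 CPM in HPβCD libraries (log2 fold change 1.46, adjusted p = 0.0462). *Dcn*, the most abundant of that list, overlapped between groups (log2 fold change 0.80, adjusted p = 0.129), and *Col3a1* was at 1.01 (adjusted p = 0.201). DESeq2 called 6 of the 10 fibroblast markers higher and 1 lower, against 5.92% and 11.1% of its genes. Foamy macrophage *Gpnmb* was at 2947 to 5475 CPM and 8476 to 14613 CPM (log2 fold change 1.38, adjusted p = 0.0483). *Spp1*, another of that list, had a log2 fold change of 0.09 (adjusted p = 0.896). Astrocyte markers were below 0 in 8 of 8, with a median log2 fold change of -1.57, and edgeR called 0 of them (6 at an unadjusted p of 0.05, 5 by DESeq2, 7 by limma-voom). Neuron markers were below 0 in 9 of 9 (median -5.85, 0 called by edgeR or limma-voom, 9 at an unadjusted p of 0.05, 8 by DESeq2). Their mean log2 CPM, centred gene by gene, was 3.68 and 5.98 in vehicle libraries 1 and 3. It was -0.64 and -1.75 in vehicle libraries 2 and 4 and -2.96 to 0.30 in HPβCD libraries. Oligodendrocyte markers were below 0 in 7 of 8 (median -1.82, 0 called by edgeR, 0 at an unadjusted p of 0.05, 1 lower by DESeq2, 7 lower by limma-voom). Of all genes, 16.0% were lower at an unadjusted p of 0.05. DESeq2 called 11.1% of its genes lower, and limma-voom 11.1%. Mural cell markers were above 0 in 8 of 8, against 45.9% of all genes (median 0.39). Of them 1, *Pdgfrb*, was called higher, against 1.17% of all genes. The part of these cell types in the values of *Gpx3*, *Cat* or the other genes was not tested. Of 7 adipocyte markers, 6 were too low to be tested and *Lep* had 0 counts in all libraries. *Fabp4*, the remaining one, was at 14.6 to 28.8 CPM in vehicle and 25.2 to 44.2 CPM in HPβCD libraries, with a log2 fold change of 0.61 (adjusted p = 0.159). Erythroid markers summed to 14.3 to 37 CPM in vehicle and 36 to 39.1 CPM in HPβCD libraries.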

How the data were processed

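Poly(A) RNA from 8 infarcts, 4 per group by the sample labels, was sequenced from strand-specific libraries. The authors trimmed reads with Trimmomatic 0.32, aligned them to GRCm38 with STAR 2.5.2b and counted reads per gene with HTSeq, and the deposited values are raw counts per gene without normalization. The strand option and annotation release of the counting were not given in the sources used here. The lines for reads assigned to no gene (26.6% to 36.6% of a library) were left out. Gene models, lengths and sequences came from GENCODE M21 (GRCm38), and symbols matched 45143 of 46078 identifiers.

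Counts were tested with edgeR 4.0.16 in R 4.3.3 (robust quasi-likelihood F test, TMM factors, filterByExpr, no covariate), with p-values adjusted by Benjamini-Hochberg over 14736 genes and a threshold of 0.05. CPM were scaled by TMM, log2 CPM used a prior count of 2, and standard errors were derived from each F statistic. Alternatives were DESeq2 1.42.0, limma-voom (limma 3.58.1), other scalings, no filter, a replicate block and libraries left out. No 2 libraries agreed within sampling noise (lowest chi-square per degree of freedom 18.9). The labels give no batch, so values within batches could not be had. The p-values set the group difference against the spread between these libraries, whose gene totals of 16.6 to 32.9 M limit counting precision.

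The 10 genes, the lists and the tests were chosen with earlier results of these data known. Named genes are all 10 members, up to 3 genes of highest mean CPM and every called gene of each list, and the 5 genes most like *Gpx3*. The rule gives the genes that may be named, and not all of them are reported here. *Acox3*, *Xdh* and *Pex5l* were named outside this rule, after their values were seen. How many were taken from each list was settled after values were seen. No amino acid sequence is printed, and the identities come from translated coding sequences.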

Additional observations from a re-analysis of the deposited data

Results flagged for a closer look

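Among 72 groups of 4 libraries searched, 4 had a library standing apart from the others by Dixon's test at the 95% level, and chance alone would give 3.6. Vehicle library 4 was the highest of its group for *Gpx3*, at a log2 CPM of 8.17 against 7.75 to 7.79. HPβCD library 3 was lowest for *Txnip* (7.55 against 7.71 to 7.73), which encodes an inhibitor of thioredoxin. HPβCD library 4 was highest for *Slc7a11* (9.77 against 8.89 to 8.96) and lowest for *Pgd* (7.24 against 7.81 to 7.90). The groups did not overlap for *Gpx3* and *Pgd* with these libraries included, and they overlapped for *Txnip* and *Slc7a11*.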

How the results depend on the processing

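The number of genes called changed with the test and the scaling: 287 by edgeR, 2899 by DESeq2, 3253 by limma-voom, 57 with upper quartile scaling, 11 with library totals alone and 9 with the replicate block. It ran from 0 to 629 when 1 library was left out (0 without vehicle 1, vehicle 4, HPβCD 2 or HPβCD 3, 4 without HPβCD 1, 556 without vehicle 2, 629 without vehicle 3), and the cause was not tested. Of the 9 genes other than *Gpx3*, edgeR called 1 higher, DESeq2 3, limma-voom 4, and upper quartile scaling, library totals and the block 0. Leaving out 1 library gave 0 to 1. The shares of all genes called higher were 1.17% by edgeR, 5.92% by DESeq2 and 10.9% by limma-voom. The 4 called by limma-voom were *Cat*, *Gpx7*, *Selenop* and *Sod1*. Of the further antioxidant genes 5 were called, 31 by DESeq2, 43 by limma-voom, 0 under upper quartile scaling, library totals or the block, 0 to 11 with 1 library left out (11 without vehicle 3, 10 without HPβCD 4), and 2 without vehicle 1 and 3. Over all genes, 629 of 14906 were called without vehicle 3, 353 of 15043 without HPβCD 4, and 1.34% without vehicle 1 and 3. Whether the same replicate numbers pair the samples could not be settled with 4 libraries a group. The correlations of deviations were -0.257, 0.244, 0.329 and 0.0975, with the own number highest for 2 of 4.

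Direction was kept in 159 of 160 settings of the 10 genes and 399 of 416 of the 26 named list genes. With 1 library left out, *Sod3* ran from -0.29 to 0.00 (0.00 without HPβCD 2). The other reversals were in genes that were not called. Under limma-voom they were *Glrx3* 0.04, *Gstm5* 0.51, *Lrp2* -0.08 and *Mt1* -0.07. *Mt1* was -0.04 with library totals and -0.03 with the block. Without vehicle 1 and 3 they were *Glrx3* 0.02, *Gstm5* 0.63 and *Cybb* -0.10. With 1 library left out, *Glrx3* ran from -0.11 to 0.01, *Gstm5* from -0.69 to 0.41, *Selenot* from -0.23 to 0.01, *Lrp2* from -0.02 to 0.61, *Mt1* from -0.38 to 0.21 and *Cybb* from 0.00 to 0.45 (all log2 fold changes). With 4 libraries a group, the 95% intervals of *Gpx1* and *Gpx4* included 0.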
